A study of Ovis aries and Mus musculus with 20 samples.

Results

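The Hox genes of mouse are the protein-coding genes whose symbol is Hoxa, Hoxb, Hoxc or Hoxd followed by a number, taken from the GENCODE M39 annotation of the mouse genome (build GRCm39). There are 39 of them, among 20616 protein-coding genes on the 19 autosomes with a value, and they lie in 4 clusters. The data are 2 in situ Hi-C libraries of inguinal white adipose tissue (iWAT), a subcutaneous fat depot, of adult Kunming mice aged 32 weeks. Each library was made from several animals pooled, the strain, tissue and age are shared, and no treatment or mutation is named. The layer of fat cells floating on the cross-linked tissue was lysed for its nuclei, and no other group of mice was analysed here, so the 2 pools (pool 1 and pool 2) are replicates of 1 group and no comparison between groups of mice could be made. The labels do not name the animals in either pool, and the number of contacts behind a bin is unknown. With 2 pools an exact two-sided sign test cannot go below p = 0.5, so values are given per pool or as mean ± SD (n = 2 throughout) without a test.

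Hox proteins are homeodomain transcription factors that give cells along the head-to-tail axis of the embryo their positional identity. Each vertebrate cluster keeps its genes in the same order and on the same strand, and paralog groups number them from the 3′ end, with anterior genes, to the 5′ end, with posterior genes. Polycomb proteins keep Hox genes silent outside their domain and Trithorax proteins keep them active within it. Adult fat depots retain Hox patterns of their site of origin, and several HoxA and HoxC members mark white or subcutaneous preadipocytes.

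Hi-C joins and sequences DNA ends that were near each other in the nucleus. The measure used here is the A-B index, given for bins of 20 kb. It is higher the more often a bin touches the open, gene-rich A compartment of its chromosome rather than the closed B compartment, and above 0 the bin belongs to A. It is a ratio difference without unit, scaled within each chromosome and library, so ranks among genes were taken within the chromosome. Topologically associating domains (TADs), stretches within which contacts are frequent, had been called on 1 map merged from both pools and therefore carry no replicate error. The index says nothing of RNA level, and no RNA of these mice was analysed here.

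The starts of the group 13 genes, the most 5′ member of each cluster, are shown by the 200 bases upstream of them. They were chosen because they range from the densest of the 39 Hox genes in the dinucleotide CG to the median of all protein-coding genes. This dinucleotide is the main target of DNA methylation and is dense in CpG islands. CG is in capitals, sequences run 5′ to 3′ in the direction of the gene, and all 4 stretches were intergenic in the annotation. They lie at chr6:52237823-52238022 (minus strand), chr11:96084906-96085105, chr15:102829338-102829537 and chr2:74498454-74498653 (plus strand) of GRCm39.
Hoxa13: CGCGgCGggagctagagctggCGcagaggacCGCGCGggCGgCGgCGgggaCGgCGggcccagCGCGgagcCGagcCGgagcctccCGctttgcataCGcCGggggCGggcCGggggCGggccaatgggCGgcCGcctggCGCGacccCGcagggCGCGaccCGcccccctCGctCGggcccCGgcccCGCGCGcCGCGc
Hoxb13: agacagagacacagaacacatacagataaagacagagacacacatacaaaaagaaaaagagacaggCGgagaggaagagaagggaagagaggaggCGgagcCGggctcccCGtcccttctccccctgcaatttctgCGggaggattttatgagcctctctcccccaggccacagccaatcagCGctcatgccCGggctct
Hoxc13: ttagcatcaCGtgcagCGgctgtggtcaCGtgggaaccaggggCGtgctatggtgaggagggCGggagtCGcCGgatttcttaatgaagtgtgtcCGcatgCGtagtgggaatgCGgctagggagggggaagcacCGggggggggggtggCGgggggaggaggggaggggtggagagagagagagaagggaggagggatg
Hoxd13: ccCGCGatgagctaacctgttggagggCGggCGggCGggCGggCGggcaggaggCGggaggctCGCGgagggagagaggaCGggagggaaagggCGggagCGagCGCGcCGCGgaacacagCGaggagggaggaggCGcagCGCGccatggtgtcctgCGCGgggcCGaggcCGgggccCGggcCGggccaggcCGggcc
Hoxa13 had 38 CG in this stretch and Hoxd13 28, against 12 for Hoxc13 and 7 for Hoxb13. The median was 10 over the 39 Hox genes and 7 over all protein-coding genes. A stretch with at least 50% GC and a ratio of observed to expected CG of at least 0.6 was found at 18 of 39 Hox genes (46.2%), against 37.4% of all protein-coding genes. HoxA held 8 of these among its 11 genes, HoxD 4 of 9, HoxC 3 of 9 and HoxB 3 of 10. Hoxc8 had the fewest CG of all Hox genes, 1 in its 200 bases.

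The clusters also hold microRNA genes of the miR-10 and miR-196 families, whose targets include Hox messenger RNAs. Their hairpins are shown because the same letters recur in different clusters and thus in different chromosomal settings. Capitals mark the longest stretch shared within a family, 15 bases for miR-10 and 11 for miR-196. Mir10a lies in HoxB at chr11:96207991-96208100 (plus), Mir10b in HoxD at chr2:74556414-74556481 (plus), Mir196a-1 in HoxB at chr11:96155990-96156091 (plus), Mir196a-2 in HoxC at chr15:102881785-102881869 (plus) and Mir196b in HoxA at chr6:52207061-52207145 (minus).
Mir10a: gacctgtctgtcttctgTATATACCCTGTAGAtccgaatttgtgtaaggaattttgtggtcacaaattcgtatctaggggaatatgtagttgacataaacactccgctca
Mir10b: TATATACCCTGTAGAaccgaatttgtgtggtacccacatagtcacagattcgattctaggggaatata
Mir196a-1: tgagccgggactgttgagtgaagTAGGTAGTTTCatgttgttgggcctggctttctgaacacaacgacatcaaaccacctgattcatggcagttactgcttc
Mir196a-2: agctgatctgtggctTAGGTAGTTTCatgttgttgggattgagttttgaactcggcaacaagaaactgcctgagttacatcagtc
Mir196b: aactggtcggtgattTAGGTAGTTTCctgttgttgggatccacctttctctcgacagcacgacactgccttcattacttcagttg
The bin of Mir10a had an A-B index of 3.23 and 3.31 in pools 1 and 2, and that of Mir10b 2.35 and 2.13. The bins of the miR-196 genes had 2.59 and 2.86 at Mir196a-1, 5.02 and 3.74 at Mir196a-2, and 3.62 and 3.89 at Mir196b. The pool values of Mir10a and Mir10b did not overlap, nor did those of Mir196a-1 with either of the other miR-196 genes, while those of Mir196b and Mir196a-2 did. These copies lie on different chromosomes, for each of which the index was scaled apart. Mir615, inside HoxC, had 3.6 and 4.2.

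All 39 of 39 Hox genes lay in the A compartment in both pools. Over all protein-coding genes this share was 75.6%, and on the chromosomes of the clusters it was 71.4% for chromosome 6 (HoxA), 77.3% for 11 (HoxB), 87.3% for 15 (HoxC) and 70.8% for 2 (HoxD). The 39 starts fall in 23 bins, up to 4 starts in a bin, so the genes are not 39 separate readings. The median index of the Hox genes was 3.31 and the range of their means 1.84 to 4.38, against a median of 3.26 and quartiles of 0.28 and 4.66 over all protein-coding genes. The Hox genes were therefore near the middle of the genes of the genome in level, and all 39 lay between its quartiles. Within their own chromosomes 21 of 39 were under the median gene, and the median percentile was 45.9, with a range of 36.8 to 81.7.

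The clusters differed among themselves. HoxC had a mean over its bins of 4.00 and 3.72 in pools 1 and 2 (3.86 ± 0.194), HoxA 3.67 and 3.94 (3.80 ± 0.191), HoxB 2.83 and 3.07 (2.95 ± 0.166) and HoxD 2.04 and 2.04 (2.04 ± 0.00216). HoxC and HoxA did not differ beyond their spread, while HoxB was below both and HoxD below HoxB in each pool. Each cluster has its own chromosome and the index is scaled by chromosome, so the ranks are the safer guide. The percentile among the protein-coding genes of the same chromosome had a median of 64.4 for the HoxC genes, 62.6 for the HoxA genes, 40.1 for the HoxD genes and 39.8 for the HoxB genes. All 10 HoxB and 9 HoxD genes were under the median gene of their chromosome, and so were 2 of 9 HoxC genes and 0 of 11 HoxA genes.

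**Figure D1:**
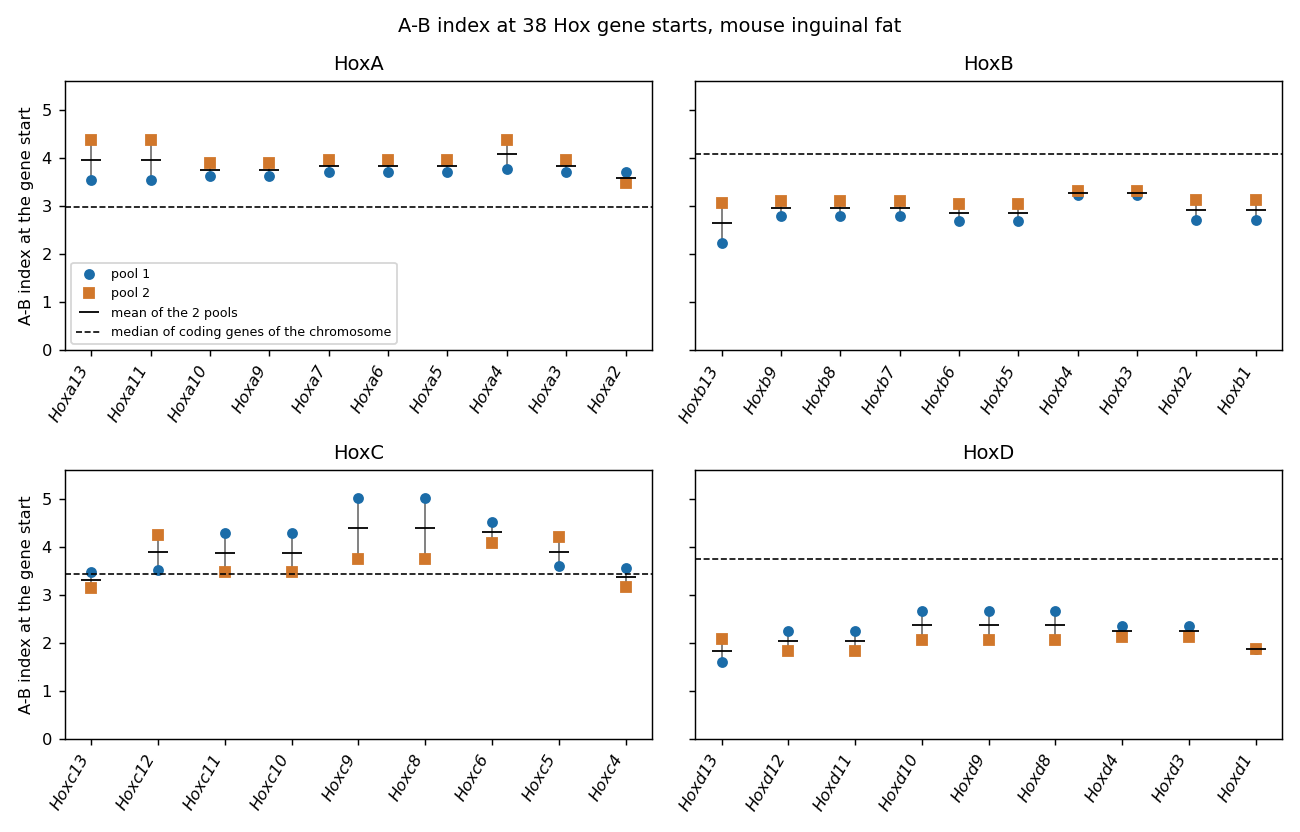
A-B index (vertical axis, no unit) at the starts of 38 Hox genes, ordered from the 5′ to the 3′ end of each cluster; circles are pool 1, squares pool 2, bars their mean, and the dashed line is the median of the protein-coding genes of the chromosome. All points are above 0, HoxA lies above its dashed line, HoxB and HoxD lie below theirs, and genes that share a bin share their values.

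HoxA spans chr6:52132570-52237822 on the minus strand and has 11 genes. Hoxa13, needed for digits and the genital tubercle, had 3.54 and 4.37 in pools 1 and 2. Hoxa4 was highest by mean (3.78 and 4.37, 4.07 ± 0.418) and Hoxa2, which patterns the second branchial arch, lowest (3.70 and 3.48, 3.59 ± 0.160). Over all 6 bins pool 1 ran within 3.54 to 3.78 and pool 2 within 3.48 to 4.37, so the order by mean rests mostly on pool 2. Hoxa3, Hoxa5, Hoxa6 and Hoxa7 share a bin with 3.70 and 3.95, and Hoxa9 and Hoxa10 a bin with 3.62 and 3.89. Hoxa11, a gene of the uterus and forelimb, shares the bin of Hoxa13.

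HoxB spans chr11:96085106-96259082 on the plus strand and has 10 genes, with a wide gap between Hoxb13 and Hoxb9. Hoxb13, at the 5′ end and known from the tail bud and prostate, was lowest (2.24 and 3.06, 2.65 ± 0.586), and Hoxb1, a hindbrain gene at the 3′ end, had 2.71 and 3.12 together with Hoxb2. Hoxb3 and Hoxb4 were highest (3.23 and 3.31, 3.27 ± 0.0569). Hoxb7, Hoxb8 and Hoxb9 had 2.80 and 3.11, and Hoxb5 and Hoxb6 2.69 and 3.05. In both pools the Hoxb3 and Hoxb4 bin was the top of the 5 bins that hold HoxB starts.

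HoxC spans chr15:102829538-102945278 on the plus strand, with 9 genes and none of groups 1 to 3. Hoxc8, which in mouse cells restrains the brown fat program, and Hoxc9, a marker of white preadipocytes, share a bin and were the highest of all 39 Hox genes (5.02 and 3.74, 4.38 ± 0.902). Their pool difference of 1.28 was also the largest of the 39, so the top place holds in pool 1 and not in pool 2, where Hoxa4, Hoxa11 and Hoxa13 had 4.37. Hoxc6, active in the thorax and mammary gland, had 4.52 and 4.09. Hoxc10, which holds back browning in subcutaneous fat of mice, had 4.28 and 3.47 with Hoxc11. Hoxc12 had 3.52 and 4.25 and Hoxc5 3.6 and 4.2. The ends were lowest by mean, Hoxc13, a gene of hair and nail, with 3.48 and 3.14 (3.31 ± 0.241) and Hoxc4 with 3.55 and 3.17 (3.36 ± 0.268).

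HoxD spans chr2:74498654-74595486 on the plus strand and has 9 genes. Hoxd13, a gene of digits and external genitalia, was lowest of all 39 by mean (1.59 and 2.08, 1.84 ± 0.345), and Hoxd1 at the other end, which in mouse shapes pain-sensing neurons, had 1.87 and 1.88 (1.87 ± 0.00521). Hoxd8, Hoxd9 and Hoxd10 were highest (2.66 and 2.07, 2.37 ± 0.422), followed by Hoxd3 and Hoxd4 (2.35 and 2.13). Hoxd11 and Hoxd12 had 2.25 and 1.82. In pool 2 these bins ran only within 1.82 to 2.13, so the central peak is a feature of pool 1.

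Among the Hox genes tied to white fat (Hoxa5, Hoxa7, Hoxa9, Hoxa10, Hoxc8, Hoxc9 and Hoxc10), 7 of 7 were in A, with means of 3.75 to 4.38 and a median of 3.83. All 39 Hox genes and 75.6% of all protein-coding genes were in A in both pools, so this count does not set the 7 apart. Hoxa5 shares its bin with Hoxa7, Hoxa9 with Hoxa10 and Hoxc8 with Hoxc9, so the 7 are not separate readings. They all belong to HoxA and HoxC, the clusters of higher index, and their choice fixes that.

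The position along the cluster gave no shared gradient. The posterior members (groups 9 to 13) minus the anterior members (groups 1 to 4) differed by 0.57 and 0.44 in pools 1 and 2 for HoxC, by -0.45 and -0.13 for HoxB, by -0.13 and 0.29 for HoxA and by 0.10 and -0.07 for HoxD. Only HoxC and HoxB kept a sign in both pools, and the signs were opposite. In HoxC the anterior side is Hoxc4 alone, and from the first annotated base of the gene in place of the canonical start its difference became -0.03. By paralog group, the 12 anterior genes had a median of 3.27, the 11 central genes (groups 5 to 8) 3.83 and the 16 posterior genes 3.53, all within the range between clusters. Within a group the clusters differed too. The 4 genes of group 13 ran from 1.84 (Hoxd13) to 3.96 (Hoxa13), and the 4 of group 9 from 2.37 (Hoxd9) to 4.38 (Hoxc9). Such ranges of single genes cannot be set against the medians above, since the 12 anterior genes alone ran from 1.87 to 4.07. All these levels were compared across chromosomes, for each of which the index was scaled apart. By percentile within the chromosome, group 13 ran from 36.8 (Hoxd13) to 65.7 (Hoxa13).

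The pools differed in opposite directions in different clusters. Pool 2 was higher at 10 of 10 HoxB and 9 of 11 HoxA genes and at 2 of 9 HoxC and 2 of 9 HoxD genes, 23 of 39 in all. Over all protein-coding genes pool 1 was higher at 71.0%, and the index had a wider spread in pool 1 (SD over bins 3.82, against 3.46 in pool 2). The median SD between pools was 0.268 over the Hox genes and 0.354 over all protein-coding genes. Over all bins with sequence the pools had a Pearson's r of 0.988 (neighbouring bins are not independent) and a median absolute difference of 0.449.

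The clusters were next set against the 1 Mb of the chromosome on each side, 100 bins per cluster. HoxB was below its flanks, with 2.83 and 3.07 in pools 1 and 2 against 4.03 and 3.71, a difference of -1.19 and -0.64 (-0.92 ± 0.394). HoxD was above them, with 2.04 and 2.04 against 1.74 and 1.45 (0.45 ± 0.207), and HoxC likewise, with 4.00 and 3.72 against 2.86 and 2.34 (1.26 ± 0.171). HoxA had 3.67 and 3.94 against 3.79 and 3.32, a difference whose sign changed between pools (-0.12 and 0.62). Gene by gene, 10 of 39 starts were lower than the mean of the bins within 1 Mb of them in both pools, all of them HoxB, where 23.8% of protein-coding genes were. Higher in both pools were 18 of 39, all of HoxC and HoxD, where 67.5% of protein-coding genes were, and the 11 HoxA genes were mixed. The typical protein-coding gene was 0.871 above its surroundings, and the median Hox gene 0.288 above.

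These differences depended on how far the flank reached. With 500 kb on each side HoxB differed from its flanks by -0.56 and -0.06, and with 200 kb by -0.12 and 0.31. For HoxC the sign turned, to -0.92 and -0.38 with 500 kb and -0.60 and -0.16 with 200 kb. The turn went with the profile by distance, given here as means over steps of 200 kb. On the 5′ side of HoxC the mean was 3.94 and 3.35 in pools 1 and 2 over the first step and 6.02 and 5.26 at 200 to 400 kb, and on the 3′ side it was 5.05 and 4.21 over the first step and 5.78 and 4.96 at 200 to 400 kb. Farther on the 3′ side the step mean was -2.67 and -2.65 at 600 to 800 kb and -5.19 and -4.87 at 800 to 1000 kb, a B region that covered 25 of the 100 flank bins in both pools. The mean of HoxC thus lay below the step means at 200 to 400 kb on either side, and above its first 200 kb on the 5′ side by 0.05 and 0.37. The 1-Mb mean of the 3′ flank, 0.59 and 0.08, took in the B region, against 5.13 and 4.60 on the 5′ side.

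With both sides together HoxD remained above its flanks at 500 kb (0.98 and 1.19) and 200 kb (0.39 and 0.80). Against its 3′ flank alone the sign changed between pools at 1000 kb (-0.19 and 0.14) and 200 kb (-0.08 and 0.40). At 500 kb that difference was 0.25 and 0.54. Against its 5′ flank alone HoxD was higher in both pools, by 0.80 and 1.05 at 1000 kb. The 5′ side of HoxD was close to the border of the compartments, with step means of -0.20 and -0.02 between 200 and 400 kb and -0.20 and -0.22 between 400 and 600 kb. The gene desert on this side is known for enhancers of the 5′ HoxD genes in limb and genital buds. On the 3′ side the means of the first 4 steps of 200 kb lay between 1.06 and 2.12 in both pools, and 10 of the 100 flank bins were under 0 in both pools. HoxA and HoxB had no flank bin under 0 in both pools. On the 3′ side of HoxB the step mean was 2.56 and 2.39 over the first 200 kb, lower than the cluster, and 5.12 and 4.49 at 800 to 1000 kb.

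**Figure D2:**
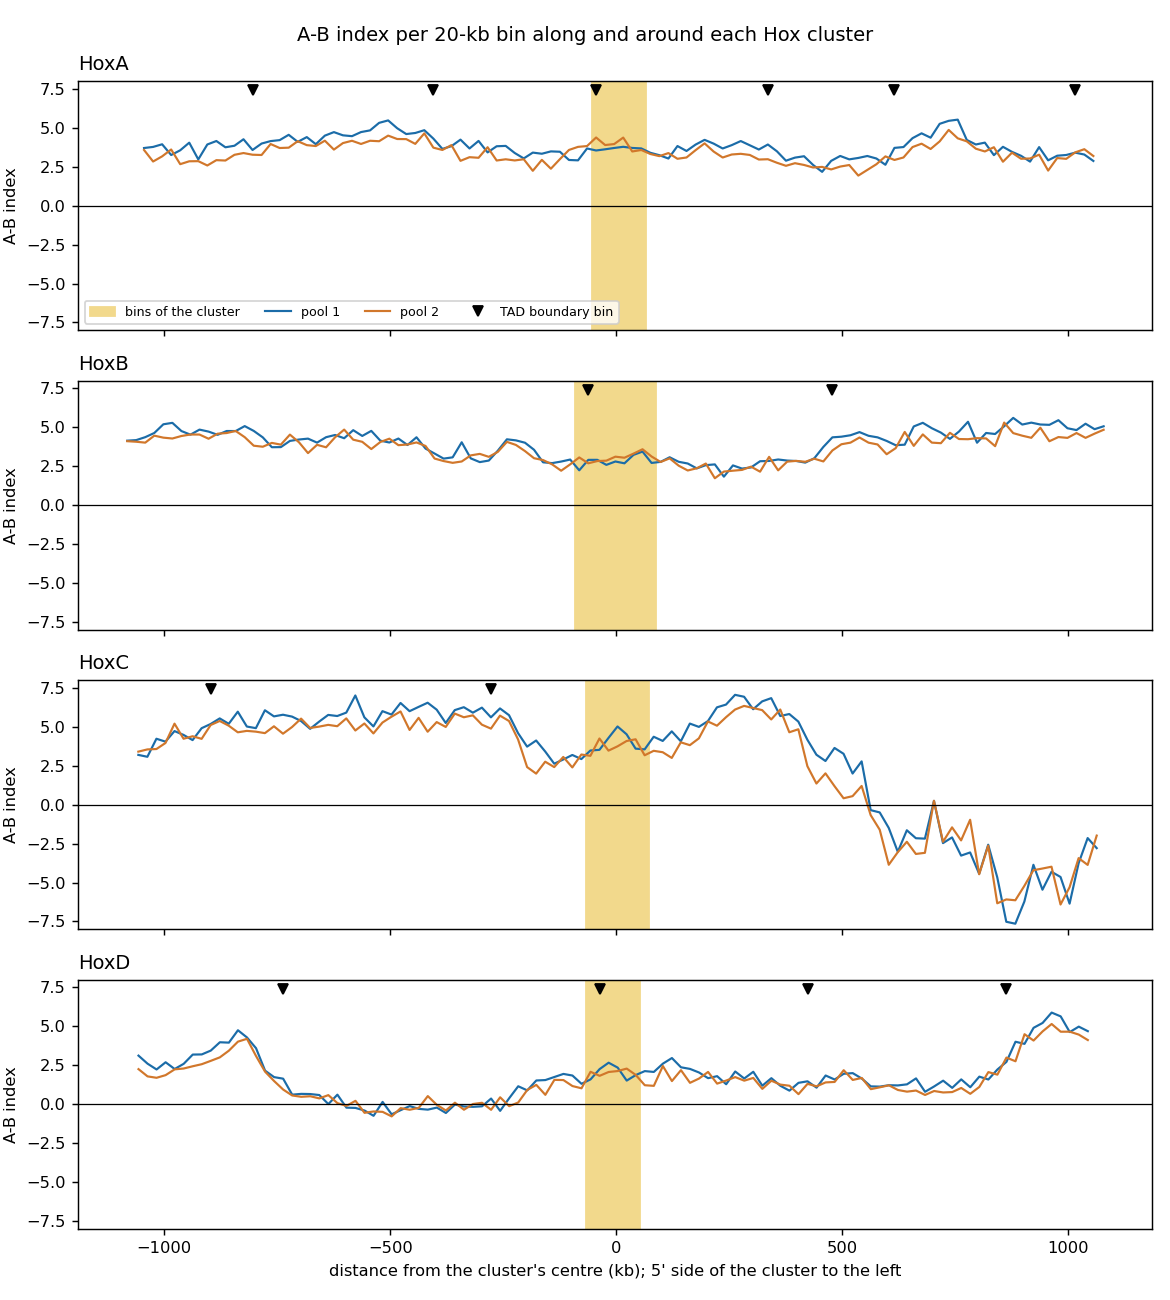
A-B index per 20-kb bin (vertical axis) against the distance from the centre of each cluster in kb (horizontal axis, 5′ side of the cluster to the left) for pool 1 and pool 2, with the bins of the cluster shaded and triangles at TAD boundary bins. HoxC has lower bins next to it on its 5′ side, higher bins farther out on both sides and a fall below 0 on its 3′ side, HoxD has a stretch near 0 on its 5′ side, and HoxA and HoxB stay above 0 throughout.

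**Figure D3:**
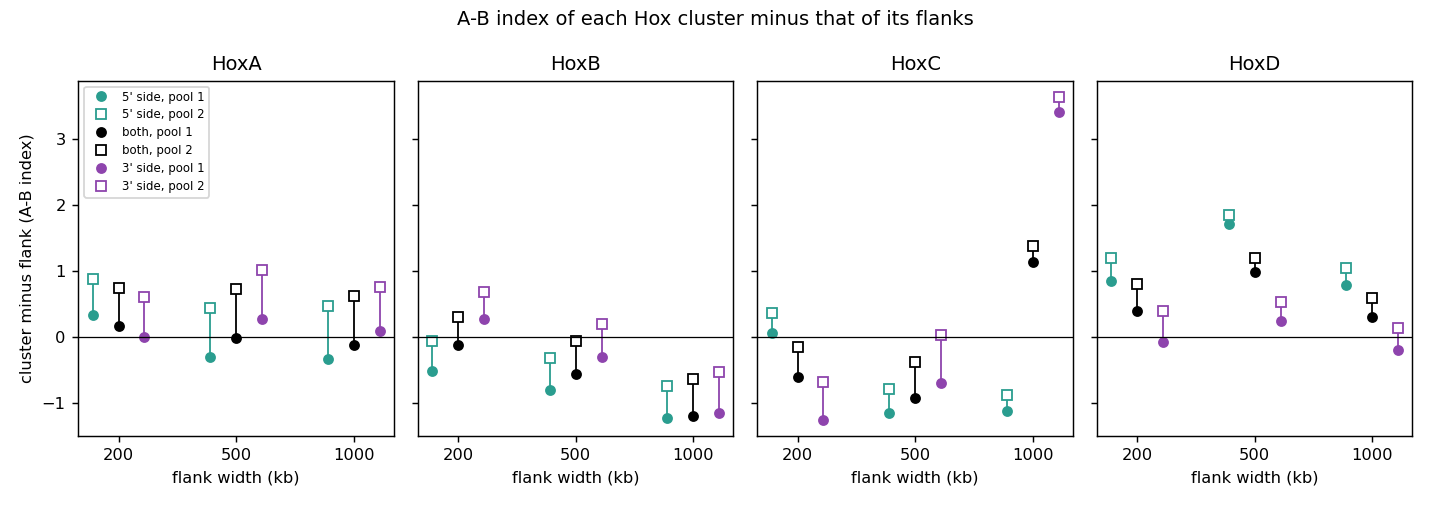
Difference between the mean A-B index of each cluster and that of its flank (vertical axis), by the width of the flank in kb (horizontal axis) and by side; filled circles are pool 1, open squares pool 2, joined by a line. HoxD stays above 0 with both sides together, HoxB falls as the flank widens, and HoxC at 1000 kb is set by its 3′ side (3.41 and 3.64), against -1.13 and -0.88 on its 5′ side.

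TAD boundaries cut 3 of the 4 clusters, in each case towards the 5′ end. A boundary here is the 20-kb bin between TADs that are 1 bin apart. Such bins made up 3 of the 28 bins of the clusters (10.7%), against 2.42% of all bins with sequence, and 4 of 39 Hox starts lay in them, against 3.80% of protein-coding genes. Within 1 bin of a boundary were 11 of 39 starts, against 11.8% of protein-coding genes. These starts lie around only 3 boundaries and most share a bin, so they are not separate readings.

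In HoxA the boundary bin, chr6:52220001-52240000, holds the starts of Hoxa11 and Hoxa13 and of 2 long noncoding RNA genes, Hoxa11os and Hottip. In human cells HOTTIP RNA helps keep the 5′ HOXA genes active. The other 9 HoxA genes share a TAD of 360 kb at chr6:51860001-52220000, at percentile 18.6 in length among the 2979 TADs, whose median was 540 kb. In HoxD the boundary bin, chr2:74500001-74520000, holds Hoxd11 and Hoxd12. Hoxd13 is the only Hox gene in the 680-kb TAD on its 5′ side, with 3 protein-coding genes in all, and the 6 genes Hoxd10 to Hoxd1 lie in a 440-kb TAD on the 3′ side. In HoxB the boundary bin, chr11:96100001-96120000, lies in the gap and holds no gene start. Hoxb13 falls in a 1500-kb TAD with 32 protein-coding genes (percentile 91.4 in length), and the 9 genes Hoxb9 to Hoxb1 in a 520-kb TAD of 10. HoxC has no boundary within it, and its 9 genes share an 800-kb TAD, chr15:102620001-103420000, with 22 protein-coding genes.

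**Figure D4:**
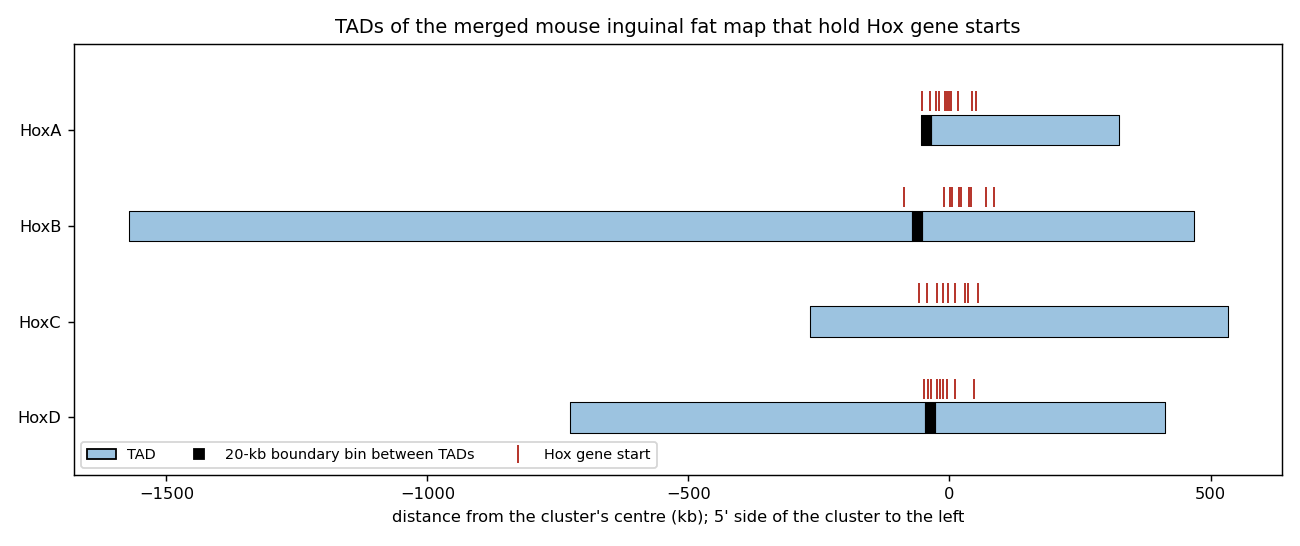
TADs of the merged map that hold Hox gene starts (bars), the boundary bins between them (black) and the gene starts (red ticks), against the distance from the centre of each cluster in kb, 5′ side to the left. The boundary bin cuts off or holds 1 to 3 genes at the 5′ end of HoxA, HoxB and HoxD, and HoxC lies whole in an 800-kb TAD; the TAD on the 5′ side of HoxA holds no Hox start and is not drawn.

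The A-B index next to these boundaries was lower on the 5′ side in all 3 and in both pools. In HoxA, HoxB and HoxD 0, 1 and 1 Hox starts lay 5′ of the boundary bin, and 9, 9 and 6 lay 3′ of it. The 5′ side is thus mostly flank and the 3′ side mostly cluster. A step at the boundary cannot be told apart from this, and other boundaries were not compared. Over the 100 kb on the 5′ side it was 3.29 and 3.31 in HoxA, against 3.69 and 3.85 over the 100 kb on the 3′ side (difference -0.47 ± 0.101). In HoxD it was 1.69 and 1.47 on the 5′ side against 2.10 and 1.91 (-0.43 ± 0.0153), and in HoxB 2.68 and 2.68 against 2.84 and 3.03 (-0.25 ± 0.134). Whole TADs did not share this direction. In HoxD the TAD on the 5′ side averaged 0.37 and 0.28 in pools 1 and 2, against 1.89 and 1.60 for that on the 3′ side, while in HoxB the TAD on the 5′ side was the higher, with 4.14 and 3.88 against 2.77 and 2.69.

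Boundaries often carry sites of CTCF, a zinc-finger protein that blocks loop extrusion. A short form of its motif was searched on both strands, spelled CC, any base, C, any base, AG, any 2 bases, GGC. It was found in 26.6% of all bins with sequence and in 35.4% of boundary bins, and of the 3 boundary bins in Hox clusters in that of HoxD alone. By cluster, 3 of 6 HoxA bins held it, 7 of 9 HoxB, 2 of 7 HoxC and 5 of 6 HoxD bins. A match was thus not particular to the boundary bin of HoxD. The match is shown as the only letters of this form in a Hox boundary, with the motif in capitals, at chr2:74507424-74507453 on the minus strand, within a UTR of Hoxd12.
HoxD boundary match: cttcagactCCTCAAGGAGGCatttttttt
In all, 5 overlapping forms of the motif were tried. The form spelled CCA, any 2 bases, AG, any 2 bases, GGC, any base, C, found in 18.5% of all bins and 26.6% of boundary bins, matched in the HoxA and HoxB boundary bins and not in that of HoxD, and the 3 stricter forms matched in none of these bins. The result for each cluster therefore turned on the letters chosen, and a match describes the sequence and not binding.

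Base composition was ranked among the bins of the chromosome, whereas the ranks of the index above were taken among protein-coding genes. The 4 cluster means of the index were also above the median bin of their chromosome. That median was -0.39 for chromosome 6 (HoxA), -0.36 for 11 (HoxB), -0.91 for 15 (HoxC) and -0.013 for 2 (HoxD). The ratio of observed to expected CG averaged 0.448 over the bins of HoxA, 0.465 for HoxD, 0.339 for HoxB and 0.332 for HoxC, at percentiles 99.9, 99.8, 97.7 and 97.5 of the bins of their chromosomes in that order. Their flanks had 0.199 to 0.250. GC content was 48.3% to 49.3% in the clusters and 41.5% to 46.8% in the flanks. Among the bins of the chromosome it was at percentile 96.5 for HoxA, 85.5 for HoxB, 88.3 for HoxC and 89.9 for HoxD. Across the bins of a cluster and its flanks the index followed GC in HoxC (Pearson's r = 0.61, 107 bins) but not in HoxA (-0.14, 106 bins), HoxB (0.18, 109 bins) or HoxD (0.04, 106 bins). With the bins of the cluster left out, r was 0.61 around HoxC, -0.22 around HoxA, 0.24 around HoxB and -0.008 around HoxD. The value of HoxC is thus one of its surroundings. Neighbouring bins are not independent, and these values are a description.

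Of the long noncoding RNA genes of the clusters, Hotair, which lies in HoxC and in human cells binds Polycomb proteins, shared its bin value with Hoxc10 and Hoxc11 (4.28 and 3.47). Hoxb5os shared that of Hoxb5 and Hoxb6 (2.69 and 3.05). A bin of 20 kb does not separate overlapping or antisense genes.

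Within 1 Mb of the clusters lie 107 other protein-coding genes, with a median index of 4.53. Of these, 89 were above the mean of the cluster they flank, a count for which no share over other genes was taken. In A in both pools were 103, against 75.6% of all protein-coding genes. Several share a bin, so the 107 are not separate readings. Beside HoxA all 9 were in A. The nearest were Evx1 (2.93 and 3.58), a homeobox gene 52.7 kb on the 5′ side, and Skap2 (4.22 and 4.00), a signalling adaptor on the 3′ side. Cbx3 and Hnrnpa2b1, which share a bin, were highest (5.44 and 4.86), and Evx1 and Jazf1 (3.75 and 2.90) lowest. Beside HoxB all 41 were in A and 37 above the cluster, with Tbkbp1 highest (5.6 and 4.63), followed by Gpr179 and Socs7 (5.06 and 4.84). The nearest were also the lowest, Ttll6 (2.70 and 2.62) and the T-cell adaptor Skap1 (2.36 and 2.37).

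Beside HoxC 45 of 49 were in A, with Nfe2 (6.93 and 6.34), and Cbx5 and Hnrnpa1 in another bin (7.05 and 6.11), highest. The nearest were Smug1, a uracil-DNA glycosylase (4.99 and 4.26), and Calcoco1 (6.18 and 5.72). The 4 genes in B in both pools were all on the 3′ side: Ppp1r1a (-0.35 and -0.67), Glycam1 (-0.50 and -1.61), Mucl2 (-2.14 and -3.87) and Mucl1 (-6.22 and -5.21), among them mucin-like genes of gland tissue. Beside HoxD all 8 were in A. Evx2, 8.75 kb from the cluster, shares the bin of Hoxd13 (1.59 and 2.08), Lnpk had 1.75 and 1.56, and Mtx2 on the 3′ side 2.60 and 2.45. Hnrnpa3 (5.22 and 4.67) and Nfe2l2, the regulator of the oxidative stress response (5.64 and 4.65), were highest.

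The 4 clusters arose by duplication of an ancestral cluster, and related genes still lie beside several of them. The families compared here were chosen after their values had been seen. The Cbx genes of heterochromatin protein 1 were above the mean of the adjacent cluster in both pools in 3 of 3 cases, by 1.2 (Cbx1, HoxB), 1.35 (Cbx3, HoxA) and 2.72 (Cbx5, HoxC). The Hnrnpa genes of RNA-binding proteins were above it in 3 of 3 (1.35 to 2.90), the Nfe2 family of leucine-zipper factors in 4 of 4 (0.37 to 3.10) and the Atp5mc genes of ATP synthase subunit c in 3 of 3 (0.79 to 1.96). The Evx genes, themselves homeobox genes at the 5′ ends, were above it in both pools in 0 of 2 cases, by means of -0.55 at Evx1 and -0.20 at Evx2. Above in both pools were also 2 of 2 Copz and 2 of 2 Snx genes, but 1 of 2 Skap and 1 of 2 Calcoco genes. Over all the flanking genes 89 of 107 were above, and Evx2 shares the bin of Hoxd13. Cbx3 shares its bin with Hnrnpa2b1, Cbx5 with Hnrnpa1 and Cbx1 with Snx11, so the Cbx, Hnrnpa and Snx counts are not separate readings.

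**Figure D5:**
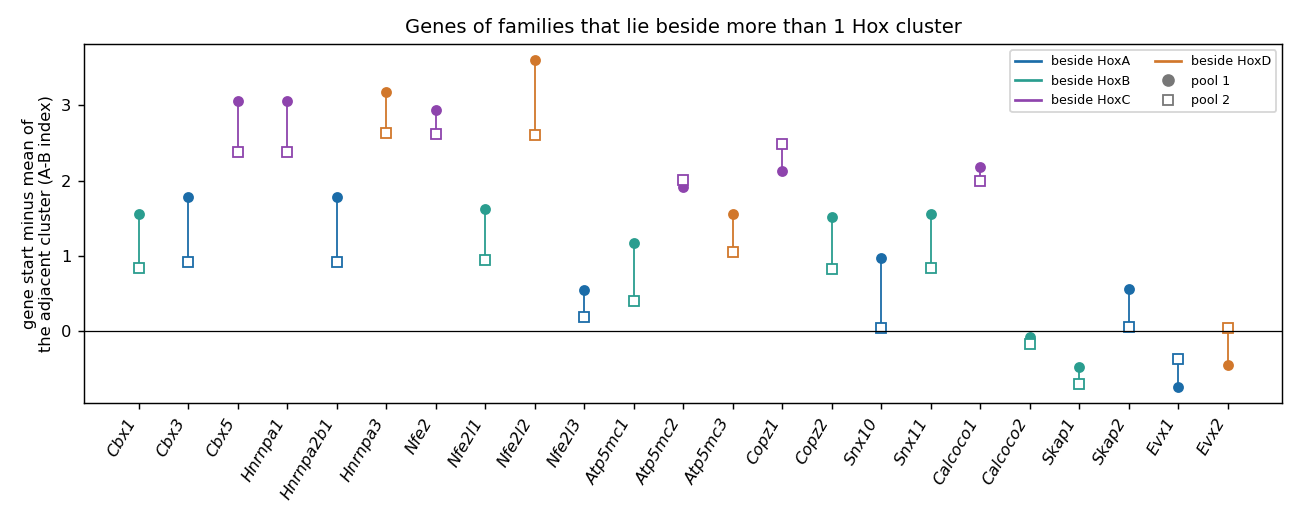
A-B index at the starts of genes of 9 families that lie beside more than 1 Hox cluster, minus the mean of the adjacent cluster (vertical axis), in pool 1 (filled circles) and pool 2 (open squares), coloured by cluster. Members of the Cbx, Hnrnpa, Nfe2, Atp5mc, Copz and Snx families lie above 0 in both pools, and Evx1, Skap1 and Calcoco2 lie below 0 in both.

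Genes that act with or on Hox genes, and the ParaHox and Dlx genes, lie outside the clusters and their 1-Mb flanks. Of the 9 TALE cofactors, which bind DNA together with Hox proteins, 6 were in A in both pools and 2 in B, with a median of 4.48. Meis1 had -1.98 and -1.51 and Pknox2 -0.42 and -0.69, and Meis2 changed sign between pools (-0.60 and 0.09). Of 28 Polycomb genes 27 were in A (median 4.15), the exception being Pcgf5 (-1.32 and -1.45). All 11 Trithorax genes and H3K27 demethylases were in A (median 4.93). The 5 ParaHox genes, the sister homeobox group, were in A with a median of 1.44. The 6 Dlx genes were in A (median 4.00), with Dlx5 (0.33 and 0.40) and Dlx6 (0.45 and 0.35) near 0. Gsx1, Pdx1 and Cdx2 of the ParaHox genes lie close together on chromosome 5, and the Dlx genes lie in pairs. Their values are therefore not separate readings. Dlx3 and Dlx4 start within the 1500-kb TAD that also holds Hoxb13. Beside these, 75.6% of all protein-coding genes were in A with a median of 3.26.

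Of the markers of cell types, 7 of 7 for white adipocytes were in A (median 3.97), among them Adipoq (2.71 and 2.74) and Plin1 (7.05 and 6.57). Over all protein-coding genes 75.6% were in A in both pools, so these counts are no check of the tissue. Of the 3 neuron markers 1 was in A (median -1.84), and of the 3 hepatocyte markers 2 (median 0.35). For endothelial cells 3 of 3, for macrophages 2 of 3, for lymphocytes 2 of 3, for mammary epithelium 3 of 4, for skeletal muscle 2 of 3 and for mesothelium 2 of 3 were in A. The compartment of a gene does not show which cells were present, and the part of cells other than adipocytes in these values was not tested.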

How the data were processed

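The samples were 2 in situ Hi-C libraries of mouse iWAT, 1 group, assigned from their labels. For every 20-kb bin and library the deposited files hold a signed score, the A-B index, and they list TADs by position. Per the study's methods, read pairs were aligned to GRCm39, coarse A and B regions were drawn for each chromosome and library, and the index of a bin is its median observed over expected contact with A regions minus that with B regions. TADs were called from insulation scores of the merged map. The bin ends met those of GRCm39 on all 19 autosomes. Depth per bin is not given in the deposited files, so no counting interval was possible, and the error is the SD between pools. A difference in contacts between libraries, or in how coarse regions were drawn, could shift a whole chromosome. The sheep files were not used here.

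Here each gene took the value of the bin of its Ensembl canonical start (GENCODE M39). This start was chosen over the first annotated base after the values had been seen. Cluster means covered every bin of the span, flanks 1 Mb on each side. Bins with over 50% unknown bases (3265 of 123133) were left out of backgrounds and flanks. Percentiles are shares of protein-coding genes, or bins, of the chromosome with lower values. Members and lists were chosen with earlier results of these data known. Named were the end, highest and lowest genes of each cluster, those at boundaries, those tied to white fat, and of the flanks the nearest, the 2 highest and the 2 lowest genes. Neighbour families and motif forms were chosen after values had been seen. 1 HoxA gene enters counts and means only and is not reported here by itself. Sequences were read from GRCm39. Alternatives covered gene bodies, windows of 100 kb, scaling by the SD, flank widths, boundary tolerance, starts and each pool alone. The scripts were tested on simulated data with 200 shifted genes. Python 3.11.15, numpy 2.4.6, pandas 2.3.3, pysam 0.24.0 and matplotlib 3.10.9 were used.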

Additional observations from a re-analysis of the deposited data

How the results depend on the processing

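All 39 Hox genes had a positive index under every alternative run, and no single gene changed sign. The median of the 39 genes was 3.31 to 3.48 with each pool alone. The mean of HoxB became 2.49 when the index was scaled by the SD of chromosome and pool. That of HoxD, whose pools differed little, became 1.93 scaled by the SD and 2.15 as a mean over genes in place of bins. Means over genes were also 2.15 from first bases, 2.14 over gene bodies and 1.99 over 100 kb. Ranks among all autosomes were at percentile 45.7 for HoxB, 60.5 for HoxC and 38.4 for HoxD, and with each pool alone 69.6 to 69.7 for HoxC and 39.4 to 39.9 for HoxD.

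Cluster minus flanks was the least stable result. HoxB gave -0.31 with flanks of 500 kb and 0.0940 with 200 kb. HoxC gave -0.65 and -0.38 with these flanks, -0.76 with medians of bins, -1.005 against its 5′ flank and 3.52 against its 3′ flank. HoxD gave 1.09 with 500 kb, 0.92 against its 5′ flank and -0.0286 against its 3′ flank. With each pool alone HoxA ran from -0.12 to 0.62. The 5′ minus 3′ end of HoxC was 0.29 over gene bodies, 0.64 without Hoxc13 and -0.0330 from the first bases of genes, where the start of Hoxc4 moves. With each pool alone that of HoxA ran from -0.13 to 0.29 and that of HoxD from -0.0726 to 0.0959. The cause was not tested. Counts of genes per TAD and of boundaries kept within 1.5 times their values. The mean over genes, the first-base start, the sides apart and the end without group 13 were chosen after seeing the data. No paired analysis was possible because the pools form 1 group. The 20-kb bin, 2 pools and unknown depth per bin limit all values.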
